A study of Mus musculus with 12 samples.

Results

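The genes described here are 9 ATP-binding cassette (ABC) transporters of brain vessels, chosen by name: the drug and metabolite exporters Abcb1a, Abcb1b, Abcg2, Abcc1, Abcc4, Abcc5 and Abcc6 and the lipid transporters Abca1 and Abcg1. All 9 were found by symbol and Ensembl identifier on GRCm38 among the 54119 genes of the series, and all 9 passed the filter on low counts that left 19150 genes for testing. RNA was sequenced from cerebral vessels of wild type C57BL6 mice aged 2 to 3 months that had received an intraperitoneal injection of PBS, or of lipopolysaccharide (LPS, the bacterial cell wall component that triggers systemic inflammation) at 10 mg/kg for 15 min, 30 min, or 4 h. Each group had 3 libraries, and each library pooled the vessels of 1 male and 1 female mouse, so that the spread between libraries is that between pools of 2 mice. The question was how early and in which direction these transporters moved during acute systemic inflammation.

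ABC transporters use ATP to move lipids, drugs and metabolites across membranes. At the blood-brain barrier, P-glycoprotein (encoded in mice by the neighbouring genes Abcb1a and Abcb1b) and the breast cancer resistance protein (Abcg2) sit on the blood side of the endothelial cells and return many drugs to the blood. The multidrug resistance-associated proteins of the ABCC family export conjugated metabolites, cyclic nucleotides and prostanoids, ABCA1 hands cholesterol and phospholipid to apolipoproteins, and ABCG1 exports sterols to lipoprotein particles.

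Library depth was 18.3 to 25.9 M estimated fragments. Groups are compared in CPM, which relates counts to the library total after trimmed-mean scaling, and genes are compared in TPM, which also accounts for transcript length. All 15 endothelial marker genes were detected in every group, and their summed CPM had a median of 14735 in PBS and, with LPS, of 14922 at 15 min, 15675 at 30 min and 10440 at 4 h. Transcripts of other cells were present as well: the summed CPM of 7 choroid plexus markers went from a median of 10655 in PBS to 18510 at LPS 4 h, and that of 8 neutrophil markers went from 4.95 to 209, with Ly6g at 0 in all PBS and LPS 15 min libraries. Markers of skeletal muscle stood apart in all 3 LPS 30 min libraries, with a summed CPM of 163 to 176 against 10.8 to 16.2 in PBS. In such bulk samples fewer cells of a type and less RNA per cell cannot be told apart, and the part of these cells in the values below was not tested unless a value says otherwise.

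At LPS 4 h, 5 of the 9 transporters passed the test for a change of more than 1.5-fold. Abcb1b, Abca1 and Abcc1 rose, and Abcb1a and Abcc6 fell. Abcc5, with an estimate 1.52-fold lower, was not called. Scaled by library size only, 8 of the 9 passed, 3 higher and 5 lower, with Abcg2, Abcc4 and Abcc5 added to the lower ones. Calls past the threshold used the edgeR test against a 1.5-fold null (glmTreat), with p-values adjusted by the Benjamini-Hochberg method over 19150 genes and a limit of 0.05. In all genes this test called 19.0% higher and 13.8% lower at LPS 4 h (3636 and 2637 genes, or 1907 and 8555 when scaled by library size only), and the 9 transporters had a median size of change of 1.39 on the log2 scale against 0.59 for all genes. With no fold limit, 3 of the 9 were higher and 5 lower (34.9% and 33.7% of all genes), and the CPM of the 3 LPS 4 h libraries did not overlap that of the 3 PBS libraries in 8 of 9 (70.9% of all genes). Abcg1 was the exception, and it is also the transporter whose direction depended on scaling: its log2 change at LPS 4 h was 0.11 with the trimmed-mean factors and -0.60 with library size only, a scaling that shifts the median of all genes by -0.71.

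**Figure D1:**
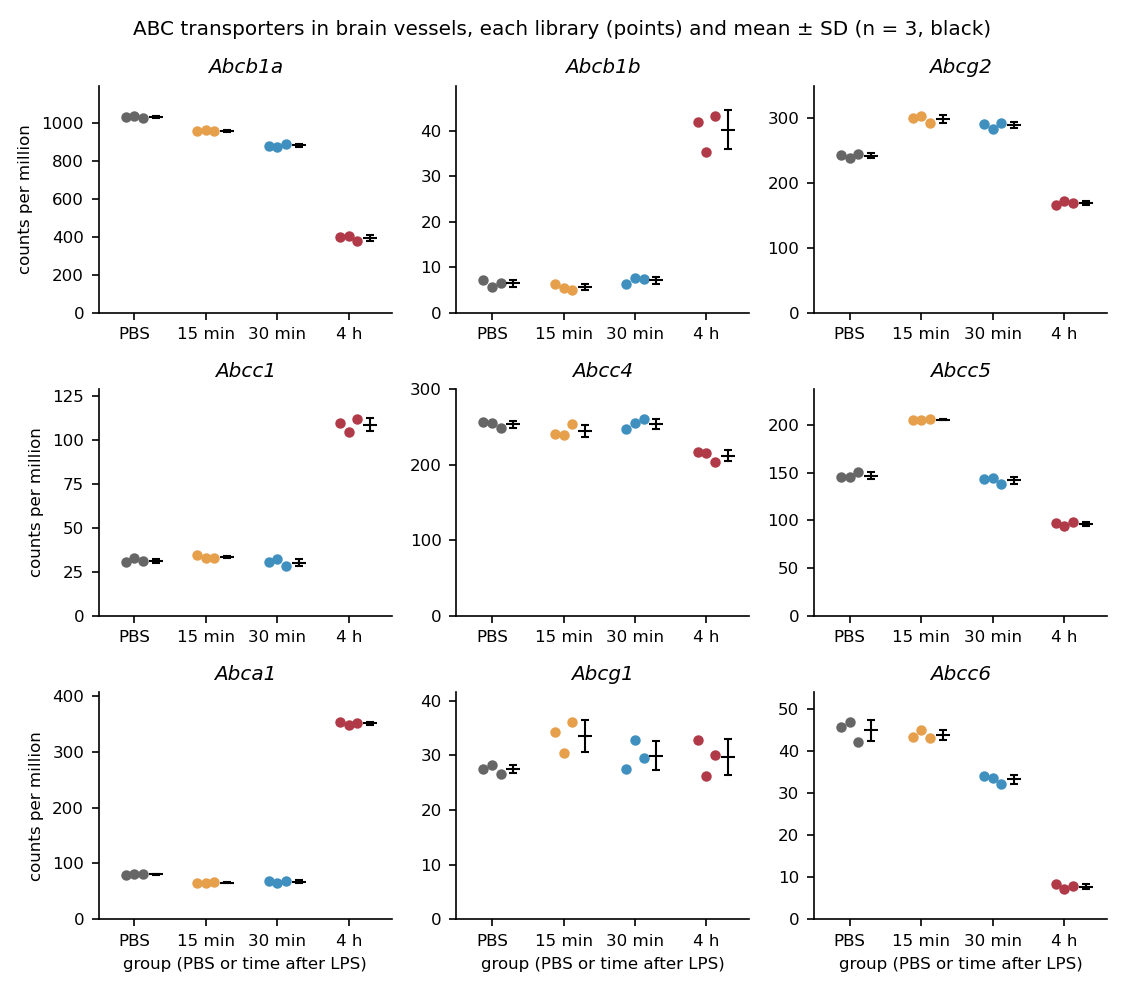
CPM of each of the 9 transporters (vertical axes, each from 0) in the 3 libraries of each group, PBS first and then the LPS times; coloured points are libraries and the black mark is the mean with its SD. The LPS 4 h libraries sit apart from all others for Abcb1b, Abcc1 and Abca1 (above) and for Abcb1a, Abcg2, Abcc4, Abcc5 and Abcc6 (below), and only Abcg1 overlaps PBS.

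The first 30 min brought small shifts on the CPM scale. At LPS 15 min and at LPS 30 min none of the 9 passed the 1.5-fold threshold in edgeR, at an unadjusted p below 0.05 the count was also 0, and it was 0 with DESeq2 and with limma. In all genes the threshold test called 3.31% higher and 0.872% lower at LPS 15 min, and 3.78% higher and 0.799% lower at LPS 30 min. With no fold limit, Abcg2, Abcc5 and Abcg1 were higher and Abcb1a and Abca1 lower at LPS 15 min (3 and 2 of 9, against 20.4% and 18.2% of all genes). At LPS 30 min Abcg2 was higher and Abcb1a, Abca1 and Abcc6 were lower (1 and 3 of 9, against 19.7% and 17.2%). Libraries did not overlap PBS in 6 of 9 at LPS 15 min (49.3% of all genes) and in 5 of 9 at LPS 30 min (46.7%), shares that do not set the transporters apart from other genes.

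**Figure D2:**
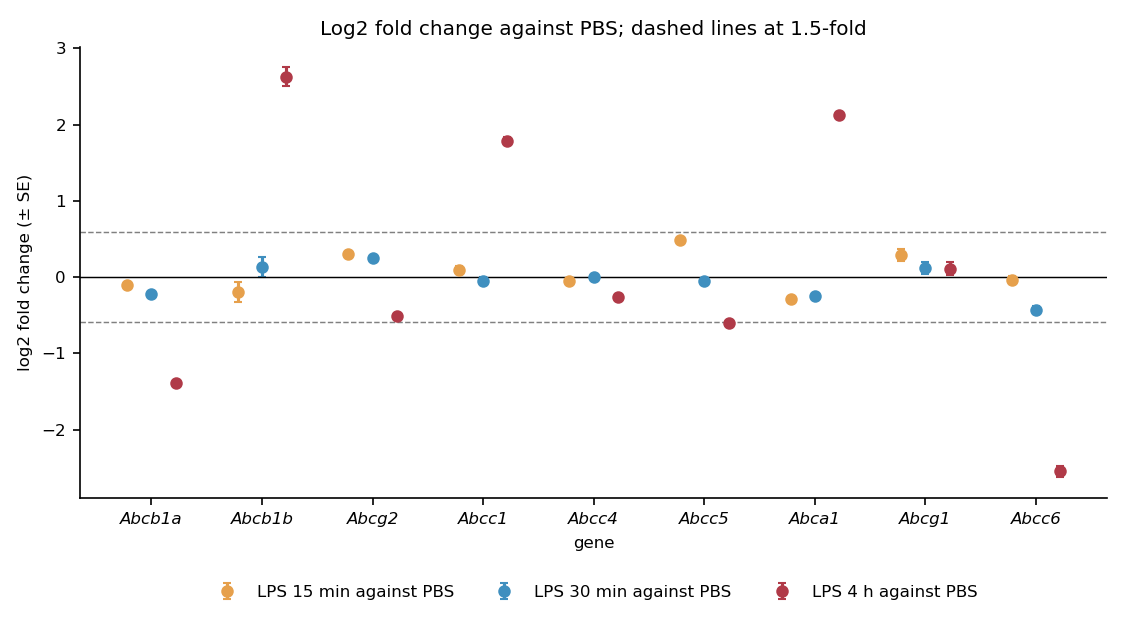
Log2 fold change against PBS (vertical axis) for each transporter at LPS 15 min, LPS 30 min, and LPS 4 h; points are edgeR estimates from 3 against 3 libraries, bars the standard error, and dashed lines a 1.5-fold change. All points of the first 30 min lie between the dashed lines, while at LPS 4 h Abcb1b (2.63), Abca1 (2.13) and Abcc1 (1.79) lie above Abcc6 (-2.55) and Abcb1a (-1.39) lie below, and Abcc5 (-0.60, not called) lies at the lower line.

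The 2 genes of P-glycoprotein moved in opposite directions. Abcb1a (chr5:8660077-8748575, plus strand) had a CPM of 1029, 1039 and 1026 in the PBS libraries, 956, 964 and 956 at LPS 15 min, 881, 876 and 890 at LPS 30 min, and 397, 406 and 379 at LPS 4 h. Each group lay wholly below the one before it. The log2 change against PBS was -0.10 (SE 0.0228) at LPS 15 min and -0.23 (SE 0.0229) at LPS 30 min, with adjusted p-values of 0.000756 and 3.75e-08 in the edgeR test with no fold limit. By LPS 4 h Abcb1a had fallen to a log2 change of -1.39 (SE 0.0239), or 2.62-fold lower (edgeR threshold test, adjusted p = 4.31e-20). The summed endothelial markers were 10440 against 14735 CPM at that time, with a median log2 change of -0.60 over the 15 genes. Of these 3 were called higher and 7 lower, against 19.0% and 13.8% of all genes.

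Abcb1b (chr5:8798147-8866315, plus strand), the next gene along the chromosome, had a CPM of 7.27, 5.74 and 6.53 in PBS, 6.41, 5.52 and 4.98 at LPS 15 min, 6.24, 7.70 and 7.46 at LPS 30 min, and 42.0, 35.4 and 43.4 at LPS 4 h. The first 3 groups overlapped, and all LPS 4 h libraries stood far above them. Its log2 change at LPS 4 h was 2.63 (SE 0.12, adjusted p = 7.86e-14 in the edgeR threshold test), the highest of the 9. The values rest on 170 to 194 fragments per library in PBS and 532 to 635 at LPS 4 h. Because Abcb1a was so much more abundant, the summed pair still fell, with a log2 change of -1.26, and the ratio of Abcb1a to Abcb1b in TPM went from 84.1 to 154 in the PBS libraries to 5.65 to 7.62 at LPS 4 h.

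How well the pair can be separated is set by their sequences. The main coding transcripts, Abcb1a-201 and Abcb1b-201, each have 3831 coding bases and align at 87.6% identity, and the longest stretch without a difference is 338 bases. Of all windows of 150 bases, the read length stated with the samples, 4.41% of Abcb1a-201 and 5.15% of Abcb1b-201 occur in the other transcript, so fragments wholly inside such stretches were divided between the genes by the Salmon estimate. The stretch of 60 coding bases in which the transcripts differ most (25 mismatches, in capitals) lies at coding bases 1913 to 1972 of Abcb1a-201 (chr5:8714924-8714983, GRCm38, plus strand) and 1922 to 1981 of Abcb1b-201 (chr5:8827363-8827422), and is shown as an example of where reads tell them apart.
Abcb1a: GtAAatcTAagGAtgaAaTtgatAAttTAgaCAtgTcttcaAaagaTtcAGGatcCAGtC
Abcb1b: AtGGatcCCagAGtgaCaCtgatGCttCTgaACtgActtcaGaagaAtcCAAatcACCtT

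RefSeq promoter sequences matched 6 of the 9 genes by symbol (not Abcc1, Abcg1 and Abcc6). Those of the 2 transporters with the highest rise, Abcb1b and Abca1, are shown as the 150 bases before the RefSeq start site (GRCm38.p6), which is also the annotated start of each gene in GENCODE. Capitals mark matches, on either strand, to any of 9 motifs: CCAAT, the GC box GGGCGG, the TATA box TATAAA, the AP-1 site TGANTCA, the nuclear receptor site AGGTCA, the cAMP response element TGACGTCA, the antioxidant response core TGACNNNGC, the aryl hydrocarbon receptor core GCGTG, and the NF-kB consensus by name.
Abcb1b (chr5:8797997-8798146, plus strand): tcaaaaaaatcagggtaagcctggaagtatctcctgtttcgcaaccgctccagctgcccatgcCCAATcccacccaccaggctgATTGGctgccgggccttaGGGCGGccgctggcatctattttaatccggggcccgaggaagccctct
Abca1 (chr4:53159896-53160045, minus strand): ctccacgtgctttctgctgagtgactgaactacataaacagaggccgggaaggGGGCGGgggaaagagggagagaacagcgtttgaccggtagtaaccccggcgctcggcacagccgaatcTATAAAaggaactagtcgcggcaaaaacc
In the Abcb1b window CCAAT occurs on both strands, 87 to 83 and 66 to 62 bases before the start, followed by a GC box. The Abca1 window holds a GC box and, 29 to 24 bases before the start, a TATA box. Among the 32851 RefSeq promoter windows, taken over 250 bases before the start, 33.8% hold CCAAT, 32.7% the GC box and 12.4% the TATA box. Neither window, over the 150 bases shown or the 250 searched, holds the letters searched for NF-kB (3.90% of all promoters) or AP-1 (6.75%), nor those of the cAMP element (1.55%), the antioxidant core (10.2%), the nuclear receptor site (14%) or the aryl hydrocarbon receptor core (28.2%), which says only that these letters are not in these bases.

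Abcg2 (chr6:58584523-58695676, plus strand) moved up and then down. Its CPM was 242, 238 and 245 in PBS, 299.6, 303 and 292 at LPS 15 min, 291, 283 and 291 at LPS 30 min, and 166, 173 and 169 at LPS 4 h. All early libraries were above all PBS libraries, and all LPS 4 h libraries below them. The log2 change was 0.30 (SE 0.026, adjusted p = 2.42e-09) at LPS 15 min, 0.25 (SE 0.0261, adjusted p = 4.72e-08) at LPS 30 min, and -0.52 (SE 0.0278, adjusted p = 9.09e-14) at LPS 4 h in the edgeR test with no fold limit. None of these passed the 1.5-fold threshold. In TPM, which has no scaling factor between libraries, the LPS 30 min libraries (191 to 196) overlapped those of PBS (190 to 196). In the normalized counts deposited by the authors they did not, with 6293 to 6425 against 5208 to 5316. The later of the early rises is thus seen on both scaled measures and not in TPM.

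Within Abcg2 the make-up of transcripts shifted in step with time. The coding transcript Abcg2-202 took between 77.1 and 78.8% of the fragments of the gene in PBS, between 81.2 and 83.9% at LPS 15 min, between 84.24 and 85.24% at LPS 30 min, and between 85.26 and 87.9% at LPS 4 h. Its counterpart Abcg2-201 lay between 15.8 and 17.97% in PBS, between 11.5 and 13.4% at LPS 15 min, between 10.4 and 10.6% at LPS 30 min, and between 7.04 and 9.69% at LPS 4 h. No range overlapped that of the group before it. Both transcripts hold the same 1974 coding bases. Abcg2-201 starts at 58596671 and Abcg2-202 at 58640564 of chromosome 6, and they also differ at the other end, with 3286 and 121 bases after the coding sequence, so a share does not say which end the fragments came from. The estimated shares are a description and were not tested.

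The 250 bases before the RefSeq starts nearest to the 2 transcripts are shown because the shares of these transcripts differed between groups, with the same motifs in capitals.
Abcg2, start of Abcg2-201 (chr6:58596422-58596671, plus strand): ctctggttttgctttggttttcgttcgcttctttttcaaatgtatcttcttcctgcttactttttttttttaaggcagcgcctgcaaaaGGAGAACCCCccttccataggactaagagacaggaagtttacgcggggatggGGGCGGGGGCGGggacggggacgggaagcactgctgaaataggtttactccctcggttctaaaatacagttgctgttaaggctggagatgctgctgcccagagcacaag
Abcg2, start of Abcg2-202 (chr6:58640296-58640545, plus strand): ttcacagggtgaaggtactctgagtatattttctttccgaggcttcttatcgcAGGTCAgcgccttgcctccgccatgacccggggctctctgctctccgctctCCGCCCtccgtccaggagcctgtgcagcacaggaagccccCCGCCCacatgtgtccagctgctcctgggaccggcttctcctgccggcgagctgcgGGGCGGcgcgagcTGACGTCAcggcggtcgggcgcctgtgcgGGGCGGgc
The window of Abcg2-201 holds 2 adjoining GC boxes and, 161 to 152 bases before the RefSeq start, a match to the NF-kB consensus on the opposite strand. The window of Abcg2-202 holds 4 GC boxes, 1 nuclear receptor site 197 to 192 bases before the start, and 1 cAMP response element 37 to 30 bases before it. A match is a description of the letters and not of a bound site.

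**Figure D3:**
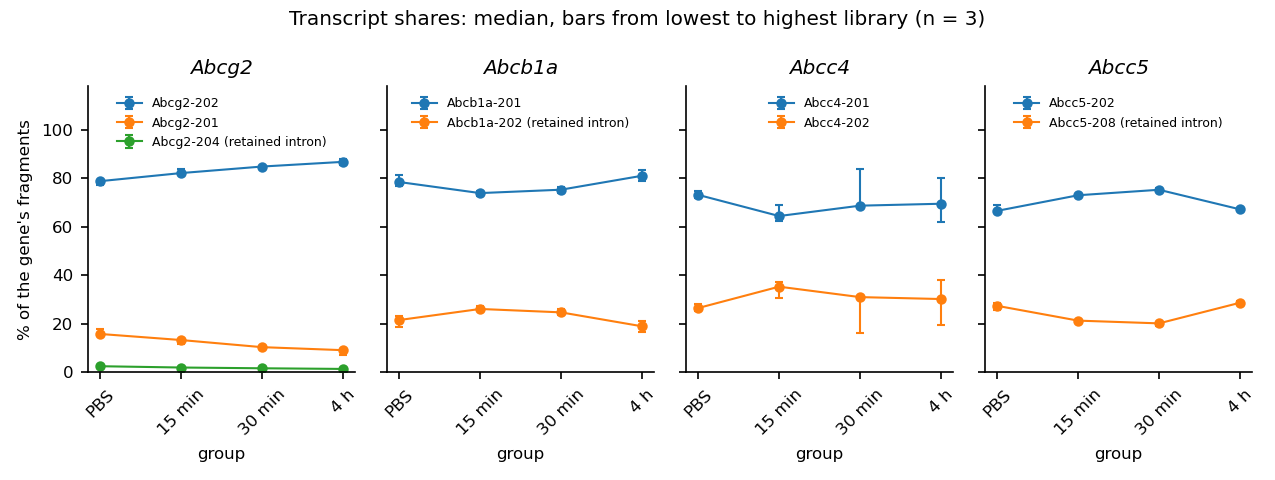
Share of the fragments of a gene (vertical axis, %) that Salmon assigned to the transcripts with the highest shares of Abcg2, Abcb1a, Abcc4 and Abcc5 in the 4 groups; points are medians of 3 libraries and bars run from the lowest to the highest library. Abcg2-202 goes from 78.8% to 86.7% and Abcg2-201 from 15.8% to 9.15%. The retained-intron transcript of Abcb1a goes from 21.6% in PBS to 26.1% at LPS 15 min and 19.0% at LPS 4 h. That of Abcc5 goes from 27.4% in PBS to 20.2% at LPS 30 min and 28.7% at LPS 4 h.

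Abcb1a also had a part of its fragments on a retained-intron transcript, Abcb1a-202. That share lay between 18.7 and 23.4% in PBS, between 25.2 and 27.2% at LPS 15 min, between 23.7 and 26.05% at LPS 30 min, and between 16.5 and 21.02% at LPS 4 h. The early groups lay above PBS, and LPS 4 h overlapped it. For Abcc5 the retained-intron transcript Abcc5-208 went the other way, with shares between 25.7 and 28.59% in PBS, between 20.8 and 21.5% at LPS 15 min, between 19.2 and 20.6% at LPS 30 min, and between 28.61 and 29.4% at LPS 4 h. The shares of the coding transcripts Abcc4-201 and Abcc4-202 also differed between the first groups. Abcc4-201 lay between 71.7 and 74.7% in PBS and between 62.5 and 69.1% at LPS 15 min, and Abcc4-202 between 25.1 and 28.1% and between 30.8 and 37.3%, without overlap. At LPS 4 h the libraries spread widely, with Abcc4-201 between 61.9 and 80.2%, and overlapped both.

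The ABCC exporters divided into a rise, a fall and small shifts. Abcc1 (chr16:14361558-14475737, plus strand) encodes MRP1, which exports glutathione conjugates and cysteinyl leukotrienes. Its CPM was 30.4, 32.7 and 31.2 in PBS, 34.4, 33.1 and 33.1 at LPS 15 min, 30.4, 32.2 and 28.3 at LPS 30 min, and 110, 105 and 112 at LPS 4 h. The early groups stayed near PBS and the LPS 4 h libraries were all over 3 times as high. The log2 change was 1.79 (SE 0.0521, adjusted p = 1.30e-16 in the edgeR threshold test), a 3.46-fold rise. Choroid plexus markers, as summed CPM, were 1.74 times as high at LPS 4 h as in PBS, astrocyte markers 1.86 times and neutrophil markers 42.3 times. The part of these cells in the rise was not tested.

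Abcc6 (chr7:45967555-46030302, minus strand) encodes MRP6, whose loss causes calcification of elastic tissue. It had a CPM of 45.7, 46.9 and 42.1 in PBS, 43.3, 45.1 and 43.1 at LPS 15 min, 34.2, 33.7 and 32.1 at LPS 30 min, and 8.25, 7.06 and 7.79 at LPS 4 h. PBS and LPS 15 min overlapped, LPS 30 min lay below both, and LPS 4 h lay below all. The log2 change was -0.43 (SE 0.0566, adjusted p = 1.94e-06 with no fold limit) at LPS 30 min and -2.55 (SE 0.0766, adjusted p = 4.12e-17 in the edgeR threshold test) at LPS 4 h, or 5.85-fold lower. In TPM the sum of its transcripts fell sooner, from 23.4 to 24.1 in PBS to 18.5 to 18.9 at LPS 15 min. The coding transcript Abcc6-201 stayed level, with means of 13.72 and 13.68 TPM. The short retained-intron transcripts Abcc6-205 and Abcc6-202 went from 5.54 to 3.02 and from 4.10 to 2.01. A fit with a transcript length offset, which depends on this mix, gave -0.34 at LPS 15 min (edgeR with no fold limit, adjusted p = 0.0454). Without the offset it was -0.04 (adjusted p = 0.649). An earlier fall of the coding transcript is thus not shown. The LPS 4 h values rest on 106 to 114 fragments per library.

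Abcc5 (chr16:20331303-20426394, minus strand) encodes MRP5, an exporter of cyclic nucleotides. Its CPM was 145, 145 and 151 in PBS, 206, 205 and 206 at LPS 15 min, 143, 144 and 138 at LPS 30 min, and 97.4, 94.4 and 98.2 at LPS 4 h. The gene was high in all LPS 15 min libraries, back just under the PBS range at LPS 30 min, and low in all LPS 4 h libraries. The log2 change was 0.49 (SE 0.0292) at LPS 15 min, with an adjusted p of 5.14e-12 in the edgeR test with no fold limit. On scales corrected for transcript length this rise was larger. The mean deposited normalized count went from 3279 in PBS to 5060, and the mean TPM from 68.9 to 107. Part of the TPM rise lay in the short retained-intron transcript Abcc5-207, with means of 14.3 and 34.6. The coding transcript Abcc5-202 went from 27.4 to 41.3. At LPS 4 h the log2 change was -0.60 (SE 0.0325), with an adjusted p of 8.30e-14 in the same edgeR test. The fall missed the 1.5-fold threshold (adjusted p = 0.268) and passed it with a transcript length offset (log2 change -0.78, edgeR adjusted p = 0.000705) and in limma on the deposited normalized counts (-0.78, adjusted p = 0.00312). The summed CPM of 8 neuron markers had the same order of groups, with medians of 435, 591, 393 and 279.8 in time order, and no range overlapped another. Of these markers 2 of the 8 were called higher at LPS 15 min (3.31% of all genes) and 3 lower at LPS 4 h (13.8% of all genes), and none was at 0. The summed CPM of 10 pericyte markers had this order too, with medians of 3880, 4082, 3776.5 and 3538, and no range overlapped another. Of these 10, 0 were called higher at LPS 15 min and 3 lower at LPS 4 h. The part of neuronal or pericyte RNA in the values of Abcc5 was not tested.

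Abcc4 (chr14:118482692-118706219, minus strand) encodes MRP4, an exporter of cyclic nucleotides and prostaglandins and had the smallest change at LPS 4 h of the 4 ABCC genes. Its CPM was 257, 255 and 249 in PBS, 240, 240 and 254 at LPS 15 min, 247, 255 and 261 at LPS 30 min, and 217, 215 and 204 at LPS 4 h. Only the LPS 4 h libraries lay clear of PBS. The log2 change at LPS 4 h was -0.26 (SE 0.0317, edgeR with no fold limit, adjusted p = 1.70e-07), and at LPS 30 min it was 0.00 (SE 0.0305).

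The 2 lipid transporters parted at LPS 4 h. Abca1 (chr4:53030787-53159895, minus strand), which starts cholesterol efflux, had a CPM of 79.0, 81.6 and 80.1 in PBS, 65.2, 65.0 and 66.6 at LPS 15 min, 69.0, 65.1 and 68.4 at LPS 30 min, and 354, 349 and 352 at LPS 4 h. It was thus lower in all 6 early libraries and more than 4 times as high in all LPS 4 h libraries. The log2 change was -0.29 (SE 0.0327, adjusted p = 1.87e-07) at LPS 15 min and -0.25 (SE 0.0331, adjusted p = 2.15e-06) at LPS 30 min in the edgeR test with no fold limit. At LPS 4 h it was 2.13 (SE 0.0309), or a 4.38-fold rise (edgeR threshold test, adjusted p = 4.17e-23).

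Abcg1 (chr17:31057675-31117988, plus strand), which passes sterols on to lipoprotein particles, had a CPM of 27.5, 28.2 and 26.7 in PBS, 34.2, 30.4 and 36.1 at LPS 15 min, 27.5, 32.8 and 29.5 at LPS 30 min, and 32.8, 26.2 and 30.1 at LPS 4 h. Only the LPS 15 min libraries were all above PBS, with a log2 change of 0.29 (SE 0.0767, edgeR with no fold limit, adjusted p = 0.00409). The change at LPS 4 h was 0.11 (SE 0.0832, adjusted p = 0.255), which leaves a change in either direction within its error. The ratio of Abca1 to Abcg1 in TPM, which needs no scaling between libraries, was 1.61 to 1.62 in PBS and 5.95 to 8.00 at LPS 4 h.

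Ranked by TPM, Abcb1a was the most abundant of the 9 in PBS vessels with 408 ± 7.08 (SD, n = 3), followed by Abcg2 with 194 ± 3.30, Abcc4 with 75.4 ± 3.14 and Abcc5 with 68.9 ± 2.14. Abcc6 (23.7 ± 0.347), Abca1 (12.3 ± 0.305), Abcc1 (8.04 ± 0.245), Abcg1 (7.62 ± 0.151) and Abcb1b (3.78 ± 1.07) came after them. The ranges of Abcc1 and Abcg1 overlapped, and those of all other neighbours did not. At LPS 15 min Abcc5 (107 ± 6.26) had passed Abcc4 (72.7 ± 2.70), and at LPS 30 min Abcc4 (61.4 ± 2.01) was again above Abcc5 (53.5 ± 2.70). These are sums over all transcripts of a gene. At LPS 15 min the main coding transcript of Abcc5, Abcc5-202, had a mean of 41.3 TPM. The coding transcripts of Abcc4 had 44.9 (Abcc4-201) and 24.7 (Abcc4-202), so the coding transcripts did not change order.

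At LPS 4 h the order was different. Abcb1a (81.1 ± 1.80) and Abcg2 (76.9 ± 2.86) had overlapping ranges at the top, Abca1 (30.2 ± 1.88) stood just under Abcc4 (33.9 ± 1.52) and above Abcc5 (21.8 ± 0.518), and Abcb1b (12.3 ± 1.60) followed Abcc1 (14.7 ± 0.476). Abcg1 (4.49 ± 0.436) and Abcc6 (1.79 ± 0.536) came last. Abcb1a made up between 50.5 and 51.1% of the summed TPM of the 9 genes in PBS, between 44.9 and 45.9% at LPS 15 min, between 45.3 and 45.8% at LPS 30 min, and between 28.8 and 29.9% at LPS 4 h. The sum itself was 788 to 815 TPM in PBS and 274 to 281 at LPS 4 h. TPM is a share of each library and has no factor for a few very abundant transcripts. The falls given here are larger on it than on the CPM scale, while the order within a library is not affected by this. The sums also include retained-intron transcripts. Abcb1a-202, of this type, had means of 139.9 TPM in PBS and 25.1 at LPS 4 h. At LPS 4 h the coding Abcb1a-201 had a mean of 56.0 TPM, below the 64.7 of the coding Abcg2-202.

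**Figure D4:**
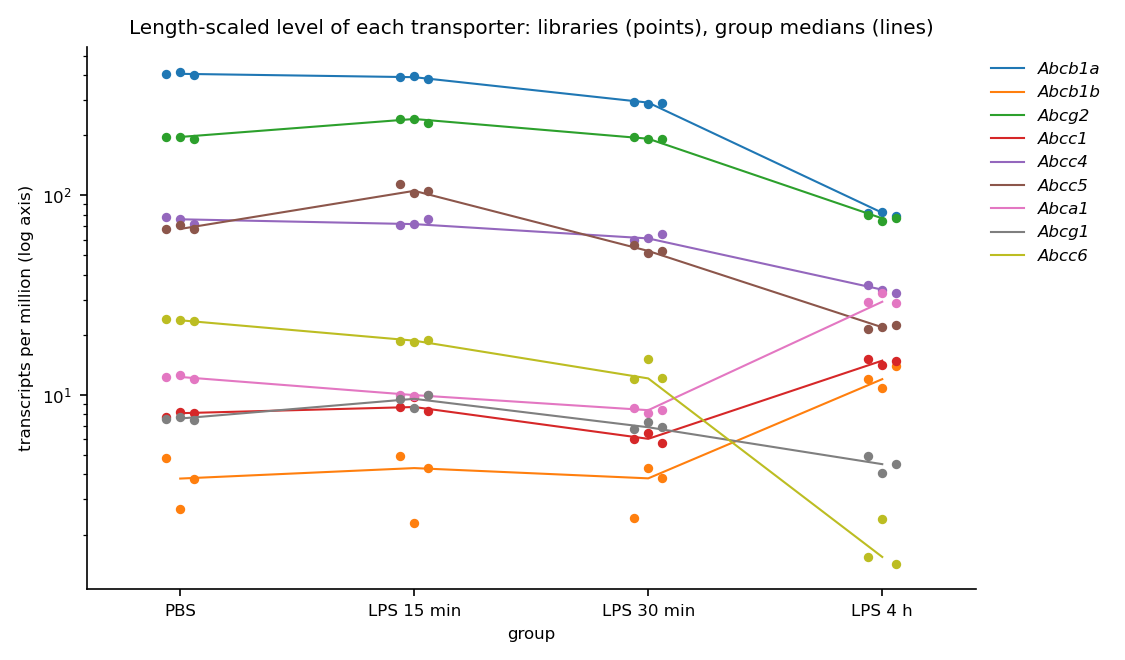
TPM of each transporter (vertical log axis) in the 12 libraries of the 4 groups; points are libraries and lines join group medians. Abcb1a and Abcg2 meet near the top at LPS 4 h (81.1 and 76.9), Abca1 climbs from 12.3 in PBS to 30.2, and Abcc6 drops from 23.7 to 1.79.

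The steps between LPS times show when the movement happened. From LPS 15 min to LPS 30 min none of the 9 passed the threshold in edgeR (0 at an unadjusted p below 0.05, and 0 with DESeq2 and limma), against 2.69% of all genes higher and 1.96% lower. With no fold limit 0 were higher and 4 lower, against 19.2% and 18.2% of all genes: Abcc5 (log2 change -0.54, adjusted p = 1.19e-12 in edgeR), Abcc6 (-0.39, adjusted p = 6.51e-06), Abcb1a (-0.12, adjusted p = 0.000192) and Abcc1 (-0.15, adjusted p = 0.044). From LPS 30 min to LPS 4 h 3 rose and 3 fell past the threshold, against 16.9% and 11.8% of all genes. Abcg2 was the addition, with a log2 change of -0.77 (SE 0.0278, edgeR threshold test, adjusted p = 6.38e-07); its LPS 30 min level had been above that of PBS. These steps and the comparisons with PBS share libraries and are not independent.

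The other ABC genes, from a list of 44 of which 35 were tested, also moved mostly at LPS 4 h. Of the 35, 6 rose and 10 fell past the threshold in edgeR at that time (19.0% and 13.8% of all genes), 2 rose at LPS 15 min, and 1 rose and 1 fell at LPS 30 min, and the list median at LPS 4 h was -0.33 against -0.01 for all genes. Tap1, a subunit of the peptide transporter that loads MHC class I, rose from 53.8 to 1071 CPM (log2 change 4.32, SE 0.0388). Abca13 rose from 0.112 to 4.62 CPM (5.33, SE 0.598), from very few fragments in PBS. Abcg3, a rodent relative of Abcg2, fell from 8.46 to 1.06 CPM (-3.02, SE 0.26).

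Among 25 genes known to control efflux transporters, mostly nuclear receptors and transcription factors, 23 were tested. Of these, 6 rose and 3 fell at LPS 4 h, near the 19.0% and 13.8% of all genes (0 and 0 at LPS 15 min, 0 and 1 at LPS 30 min in edgeR). Hif1a, the oxygen-regulated factor, rose from 74.4 to 733 CPM (log2 change 3.30, SE 0.0297). Nfe2l2, which encodes NRF2 and drives antioxidant genes, rose from 62.4 to 417 CPM (2.74, SE 0.0454). Vdr, the vitamin D receptor, went from 0.308 to 3.94 CPM (3.63, SE 0.468), a low level throughout. The list median was 0.11.

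Of 14 target genes of the aryl hydrocarbon receptor and NRF2, 13 were tested, and 8 rose and 1 fell at LPS 4 h, against 19.0% and 13.8% of all genes, with a list median of 0.99 against -0.01 for all genes. Tiparp, an ADP-ribosyltransferase induced by the aryl hydrocarbon receptor, went from 13.4 to 198 CPM (log2 change 3.89, SE 0.0547) and was the single member already called at LPS 30 min (1.12, edgeR threshold test, adjusted p = 6.27e-08). Hmox1, which degrades heme, rose from 8.42 to 53.8 CPM (2.67, SE 0.0831). Slc7a11, the cystine importer for glutathione synthesis, rose from 87.8 to 539 CPM (2.62, SE 0.0333).

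The 29 genes of liver X receptor response and lipid efflux had few calls. Of 28 tested, 3 rose and 3 fell at LPS 4 h against 19.0% and 13.8% of all genes, and 2 rose at LPS 15 min, with a list median of -0.15 at LPS 4 h. Beside Abca1 itself, Apod, an apolipoprotein, rose from 860.0 to 2094 CPM (log2 change 1.28, SE 0.0241). Cyp27a1, a mitochondrial sterol hydroxylase, fell from 14.6 to 4.67 CPM (-1.64, SE 0.157).

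Organic anion and cation carriers, which work beside the ABC exporters, fell more often than they rose. Of 16 listed, 15 were tested, and 2 rose and 8 fell at LPS 4 h, against 19.0% and 13.8% of all genes, with a list median of -1.02, after 2 had risen at LPS 30 min and none had been called at LPS 15 min. Slco1a4, a carrier of organic anions in brain endothelium, fell from 1154 to 117 CPM (log2 change -3.30, SE 0.0236). Slc22a8, which encodes OAT3, fell from 295 to 63.1 CPM (-2.22, SE 0.0334), and Slc22a6, which encodes OAT1, from 52.3 to 7.55 CPM (-2.79, SE 0.0769). Slc47a1, a proton-coupled exporter of organic cations, was higher at LPS 30 min (1.10, edgeR threshold test, adjusted p = 0.0415) and lower at LPS 4 h (-2.01, adjusted p = 2.26e-05).

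Enzymes that make glutathione and conjugate the substrates of the ABCC exporters fell past the threshold more often than they rose. Some of them, Gsr and Gclc included, are also in the list of aryl hydrocarbon receptor and NRF2 targets. Of 21 listed, 19 were tested, and 3 rose and 8 fell at LPS 4 h, against 19.0% and 13.8% of all genes (0 and 0 at LPS 15 min, 1 and 0 at LPS 30 min), with a list median of 0.04. Gsr, which regenerates glutathione, rose from 27.4 to 84.1 CPM (log2 change 1.62, SE 0.0591), and Gclc, which catalyses the first step of its synthesis, from 32.6 to 64.6 CPM (0.99, SE 0.0649). Gsta4, a glutathione transferase, fell from 75.7 to 30.1 CPM (-1.33, SE 0.0494). Sult1a1, a sulfotransferase, was higher at LPS 30 min (0.75, edgeR threshold test, adjusted p = 0.00291) and lower at LPS 4 h (-0.67, adjusted p = 0.0489).

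**Figure D5:**
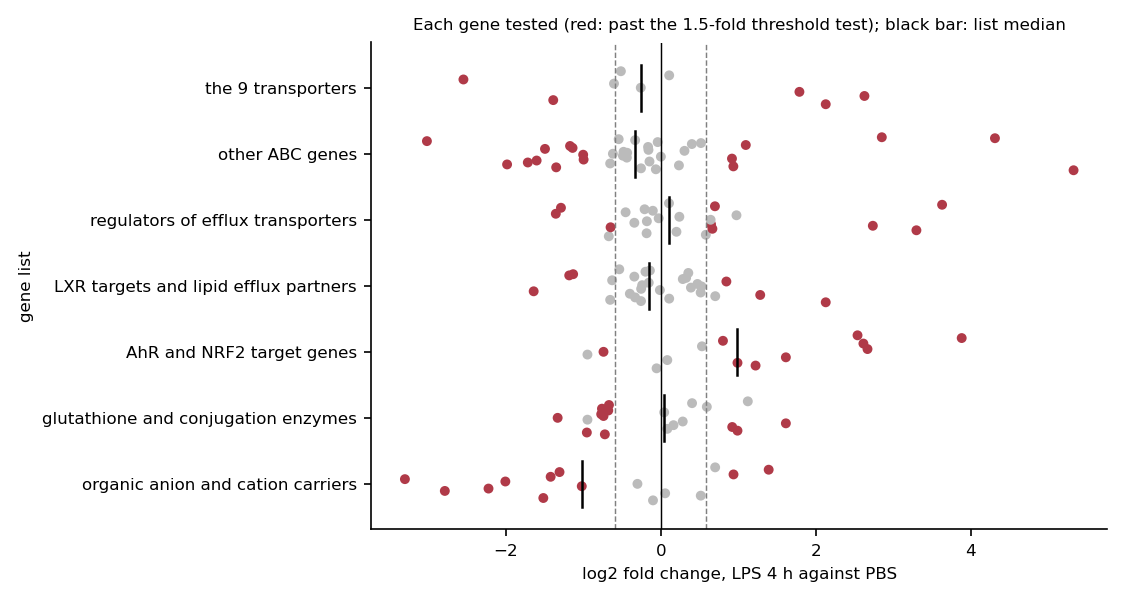
Log2 fold change at LPS 4 h against PBS (horizontal axis) of every tested gene in the 9 transporters and 6 related lists (rows); red points passed the 1.5-fold threshold test of edgeR, grey ones did not, black bars are list medians, and dashed lines mark a 1.5-fold change. The median is highest for the targets of the aryl hydrocarbon receptor and NRF2 (0.99) and lowest for the organic anion and cation carriers (-1.02), with the 9 transporters at -0.26.

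Genes whose pattern over the 12 libraries was most like that of the transporters with the highest rise and the deepest fall were sought among 12802 genes with a mean of at least 5 CPM, by Pearson correlation of log2(CPM + 1). For Abcb1b these were Serpinb1a (0.997), Apobec3 (0.995), Prnp (0.995), Slc43a3 (0.995) and Cd40 (0.995). Cd40, for example, had a mean of 14.2 CPM in PBS and 270.2 at LPS 4 h. For Abcc6 they were Sox17, Plekhg5, Slc39a10, Extl3 and Ablim1 (0.998 to 0.997), and Sox17, a transcription factor of arterial endothelium, had means of 432, 385, 299 and 37.9 CPM in the 4 groups. The points of each correlation are 12 libraries in 4 groups that share the difference at LPS 4 h, so these values are descriptions.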

How the data were processed

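RNA of cerebral vessels was sequenced in 12 libraries, 3 for PBS and 3 for each LPS time, grouped by sample titles. Vessels were isolated from perfused forebrains, and libraries made with SMART-Seq v4 and Nextera XT, which do not mark strand. The authors ran Salmon 1.2.1 (version and GRCm38.p6 from the submitters' processing notes), tximport and DESeq2. The estimated counts deposited by the authors are unscaled fragments per transcript, and the TPM values deposited beside them are scaled for effective length. The gene table deposited by the authors holds a normalized signal, which is counts divided by size and transcript length factors.

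Of 140948 transcripts, 139852 joined GENCODE M21 by identifier, and the others, with 0.482 to 0.850% of fragments, were left out. Counts were summed to 54119 genes and rounded. One edgeR 4.0.16 quasi-likelihood model (R 4.3.3, TMM, filterByExpr with a minimum count of 10) took all 12 libraries. Each of 5 comparisons was tested, two-sided, with glmTreat (1.5-fold) and glmQLFTest (no fold limit), with Benjamini-Hochberg adjustment over 19150 genes. SEs were derived from each estimate and its F statistic. The scripts were tested on simulated data. Depth was 18.3 to 25.9 M fragments. P-values measure the spread between libraries within a group, each a pool of 2 mice. A difference in preparation shared by all libraries of a group is outside that spread. It cannot be told apart from the treatment. This holds also for the skeletal muscle markers at LPS 30 min, where the cause of the difference was not tested.

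The 9 genes and the lists were chosen with earlier results of these data known. All 9 are named, as are, from each list, up to 3 genes with the largest change past the threshold at LPS 4 h and a mean of at least 1 CPM, genes called in opposite directions at LPS 30 min and LPS 4 h, and 5 pattern neighbours each of Abcb1b and Abcc6. Same-numbered libraries deviated together by correlations of -0.0489 to 0.0679 (18 pairs), so numbers were not taken as pairs. Alternatives were RLE factors, library size only, no filter, DESeq2 1.42.0, a transcript length offset from the effective lengths, separate fits of the compared groups, a replicate block, limma 3.58.1 on the normalized table with 1 or 10 added, Abcb1a and Abcb1b summed, and leaving out each library.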

Additional observations from a re-analysis of the deposited data

Results flagged for a closer look

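For 6 transporters the change at LPS 4 h differed from the change at LPS 30 min past the 1.5-fold threshold of edgeR. These are the calls of the step from LPS 30 min to LPS 4 h given above, and not a separate result. Of all genes, 16.9% were called higher and 11.8% lower in that step. The difference, on the log2 scale and as LPS 4 h minus LPS 30 min, was 2.50 for Abcb1b, 2.38 for Abca1, 1.84 for Abcc1, -2.12 for Abcc6, -1.16 for Abcb1a and -0.77 for Abcg2. For Abca1 and Abcg2 the direction turned as well: Abca1 was lower than PBS at LPS 30 min (-0.25) and higher at LPS 4 h (2.13), and Abcg2 was higher (0.25) and then lower (-0.52). No group had enough libraries to look for a single library that stands apart.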

How the results depend on the processing

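The 5 transporters past the threshold at LPS 4 h against PBS were past it in every alternative that tested them singly. With library size only, which shifts the median of all genes by -0.71 at LPS 4 h, -0.17 at LPS 30 min and -0.14 from LPS 15 min to LPS 30 min, 8 passed at LPS 4 h in place of 5 (adding Abcg2 at -1.22, Abcc4 at -0.96 and Abcc5 at -1.31), 7 in place of 4 differed from no change at LPS 30 min, and between the early times 1 in place of 0 passed and 8 in place of 4 differed. Values that turned sign under that scaling were Abcb1b (-0.0302), Abcc4 (-0.16) and Abcg1 (-0.0406) at LPS 30 min, Abcg1 at LPS 4 h (-0.60), and Abcc4 (-0.0860) and Abca1 (-0.10) between the early times. Abcc4 at LPS 30 min, reported as 0.00, was -0.00756 with RLE factors, -0.00751 with DESeq2, -0.000296 with no filter, -0.0125 in limma with either constant, and -0.0122 (without LPS 30 min replicate 3) to 0.0257 when single libraries were left out, with -0.00857 without PBS replicate 3. Abcb1b at LPS 15 min was 0.0121 with the length offset. Abcg1 from LPS 30 min to LPS 4 h was 0.0012 with RLE factors, and -0.0896 to 0.0665 when single libraries were left out, being above 0 without LPS 30 min replicate 2 (0.0493) or LPS 4 h replicate 2 (0.0665). Beyond the scaling itself, the cause of these was not tested. Left-out libraries changed 1 count, the transporters differing from no change between the early times (3 to 5). The replicate block gave 3 there in place of 4 and changed no other count of transporters; the library numbers are not pairs. Over all genes, limma with 1 added called 339 higher and 67 lower at LPS 15 min against 633 and 167 in edgeR, 476 and 55 at LPS 30 min against 724 and 153, and 309 and 134 between the early times against 516 and 375; with 10 added it called 322 and 63, 444 and 53, and 289 and 124. Library size only called 1917 higher and 6931 lower from LPS 30 min to LPS 4 h against 3229 and 2255, and with no fold limit 2102 and 7173 at LPS 30 min against 3771 and 3295. Depth limits Abcb1b before LPS 4 h and Abcc6 at LPS 4 h most.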

Other observations

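Among the other ABC genes, those called at LPS 15 min were Abcc8, from 8.87 to 21.9 CPM (log2 change 1.30, edgeR threshold test, adjusted p = 1.07e-05), and Abcg4, from 12.6 to 24.4 CPM (0.95, adjusted p = 0.003), both picked after their values were seen. At LPS 4 h their means were 10.9 and 10.1 CPM.

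Markers of vascular cells moved both ways at LPS 4 h, when the threshold test called 19.0% of all genes higher and 13.8% lower. Of 15 endothelial markers 3 rose and 7 fell in edgeR: those that rose were Cdh5, from 486 to 1889 CPM (log2 change 1.96), Erg (0.92) and Esam (0.73), named after their values were seen. The junction protein gene Cldn5 fell from 2362 to 475 CPM (log2 change -2.31) and the angiopoietin receptor gene Tek from 516 to 86.4 (-2.58), and the glucose transporter gene Slc2a1 was higher at LPS 30 min (1.01) and lower at LPS 4 h (-1.05). Of 10 pericyte markers 0 rose and 3 fell at LPS 4 h (Anpep -1.76, Atp13a5 -0.82, Higd1b -0.68), and their summed CPM had a median of 3880 in PBS and 3538 at LPS 4 h. Of 8 smooth muscle markers Des rose (0.69) and Lmod1 fell (-1.68), and the summed CPM was 2923 in PBS, 1945 at LPS 15 min and 2797 at LPS 4 h. Of 8 perivascular fibroblast markers 3 fell (Slc6a13 -2.26, Col1a1 -1.92, Col1a2 -0.70).

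Markers of other cells also divided at LPS 4 h, to be read beside the same shares of all genes (19.0% higher and 13.8% lower). Of 9 microglia markers 5 fell (among them Cx3cr1 -2.55, Siglech -1.87 and P2ry12 -1.70), with a summed CPM of 197 in PBS and 117 at LPS 4 h. Of 8 perivascular macrophage markers 3 rose (Lyve1 0.95, Pf4 0.92, Mrc1 0.91), and of 8 astrocyte markers 4 rose (among them Gja1 2.81, Aqp4 2.49 and Sox9 1.41). Of 7 neutrophil markers tested all rose (among them Ngp 7.39, Mmp8 6.54 and S100a9 6.22, from very few fragments in PBS). Of 8 neuron markers 3 fell (Stmn2 -1.91, Tubb3 -1.15, Gad2 -0.83). Of 8 oligodendrocyte markers 2 fell (Mog -1.22, Mag -1.07), while their summed CPM had a median of 455 in PBS and 515 at LPS 4 h. Of 7 choroid plexus markers 3 rose (Kl 1.14, Clic6 0.95, Ttr 0.76), and of 6 erythroid markers 5 rose (among them Hbb-bt 1.62, Hbb-bs 1.60 and Alas2 1.59). All 7 skeletal muscle markers were higher at LPS 30 min (3.78% of all genes). At LPS 4 h 5 were higher (among them Myh1 4.72, Tnnt3 1.94 and Ckm 1.65) and Mylpf was lower (-1.47). The part of these cells in the values of the transporters was not tested.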
